A study of Mus musculus with 6 samples.

Results

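The genes described here pattern the nephron tubule or serve its uptake and transport, and they were chosen by symbol: Irx1, Irx3, Pou3f3, Hnf4a, Cdh6, Lrp2, Cubn, Fxyd2 and Papss2. They are 9 of the 20033 genes in the deposited table, and all 9 were found there. RNA sequencing measured them in the mesonephros, the transient kidney of the embryo with its tubules, mesenchyme and Wolffian duct, taken from 6 male mouse embryos at E12.5. Of these, 3 were knockouts in which Wnt9b was inactivated in the whole body, and 3 were controls, called heterozygous in one label and wild type in another. The study asked about Wnt9b, a ligand secreted by the duct, in Wolffian duct development and androgen action. Libraries held about 28408222 to 32974958 reads assigned to genes, as recovered from the deposited values. The labels count each library as its own mouse and give no litter or batch.

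A nephron tubule is divided into segments. In the permanent kidney, Hnf4a drives the proximal segment, while Irx1, Irx3 and Pou3f3 belong to the programme of the middle and distal segments. Proximal cells take up filtered protein by endocytosis through the partners megalin (Lrp2) and cubilin (Cubn), and reabsorption is powered by the sodium pump, which the small membrane protein Fxyd2 modulates. The mesonephros forms simpler tubules of the same general kind.

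In Wnt9b knockout mesonephroi, Irx1 was at 18.1% of the control mean, Hnf4a at 22.7% and Fxyd2 at 37.1%. With single libraries left out, Irx1 ran from 13.2% to 20.9%, Hnf4a from 10.6% to 32.4% and Fxyd2 from 21.8% to 46.6%. The lowest value of each came without knockout 3. Cdh6, Pou3f3 and Papss2 stood between 88.0% and 106.8% of their control means. Of the 8 genes that could be tested, Irx1 passed as lower, none passed as higher and the remaining 7 did not pass (limma on log2(TPM + 1), Benjamini-Hochberg adjusted p under 0.05 across the table). Irx1 entered the test through its controls alone. Its call was kept with no filter on low values and lost with a filter on the mean of all 6 libraries. It was also lost in 5 of 6 fits that left out 1 library. Over 17577 genes tested, 0.313% were lower at that threshold and 0.131% higher. The authors' deposited table puts Irx1 and Fxyd2, 2 of the 9, under an adjusted p of 0.05, against 2.17% of its genes in the direction of lower. All 3 knockouts lay below all 3 controls for 5 of the 9 genes, which holds for 8.45% of the table. Those were Irx1, Hnf4a, Lrp2, Cubn and Fxyd2, and no member had all its knockouts above its controls, against 7.88% of the table. The median log2 difference of the 8 tested genes was -0.42, against -0.0075 over all genes tested.

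**Figure D1:**
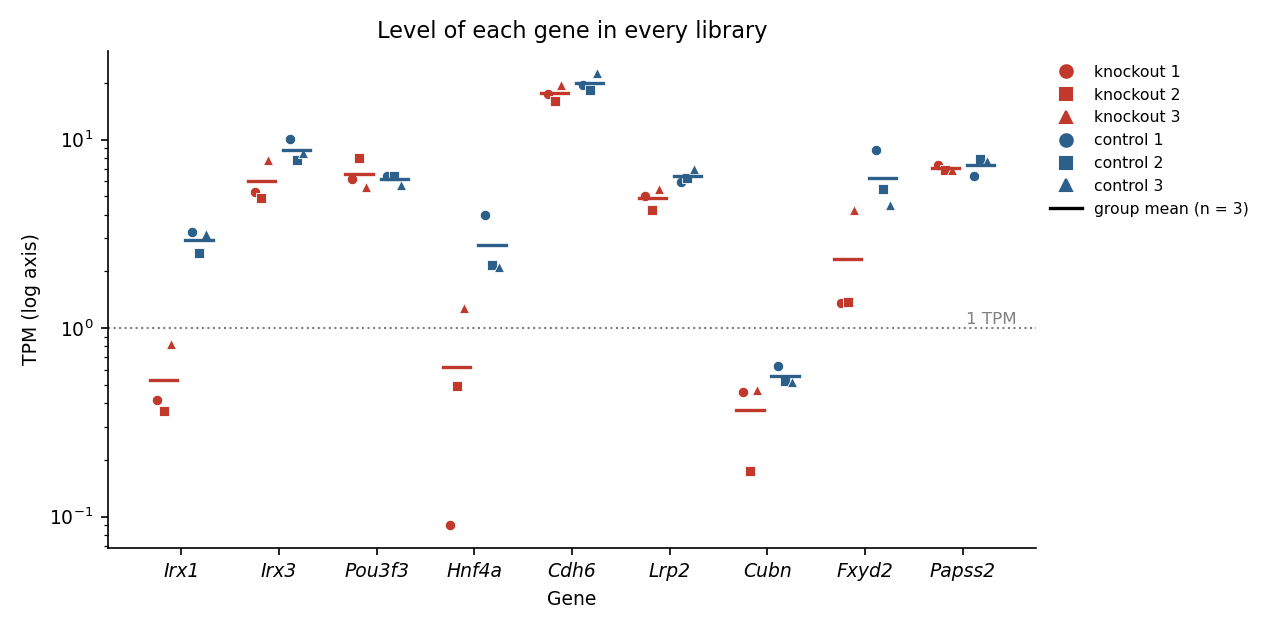
Level of each of the 9 genes, in TPM on a log axis, in knockout (red) and control (blue) libraries, with group means as bars and 1 TPM dotted. Irx1 is under 1 TPM in every knockout and above it in every control, and Cubn is under 1 TPM in all 6 libraries.

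Levels are in TPM, a normalised abundance, a scale corrected for gene length. In knockouts, Cdh6 was highest at 17.7 TPM, followed by Papss2 (7.07), Pou3f3 (6.59), Irx3 (6.0), Lrp2 (4.91), Fxyd2 (2.32), Hnf4a (0.623), Irx1 (0.533) and Cubn (0.369). In controls the order of the means was Cdh6 at 20.1 TPM, then Irx3 (8.81), Papss2 (7.35), Lrp2 (6.41), Fxyd2 (6.24), Pou3f3 (6.17), Irx1 (2.95), Hnf4a (2.74) and Cubn (0.557). Only Cdh6 stood clear of its neighbours in both groups. The control values of Irx3, Papss2, Lrp2, Fxyd2 and Pou3f3 overlapped from each neighbour to the next, as did those of Irx1 and Hnf4a. Of the 9 genes, 6 were at 1 TPM or more in all libraries and 3 (Irx1, Hnf4a and Cubn) were under it in at least 1.

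Among the segment regulators, Irx1, an Iroquois homeobox transcription factor gene (ENSMUSG00000060969), had 0.415, 0.364 and 0.820 TPM in knockouts 1 to 3, against 3.22, 2.5 and 3.14 TPM in controls 1 to 3. The groups were well apart, with every knockout under 1 TPM and every control above it. These levels rest on 5, 4 and 9 reads in the knockouts and 41, 27 and 33 in the controls. The log2 difference was -1.37 (SE 0.22, 95% interval -1.87 to -0.88; limma adjusted p = 0.0454). Irx1 passed the filter on low values through its controls alone, a route open to genes that are low in the knockouts. With a filter on the mean of all 6 libraries instead, chosen after seeing the data, its limma adjusted p was 0.0508. With no filter on low values it was 0.0343. Leaving out 1 library ended the call in 5 of 6 cases (limma adjusted p from 0.143 to 0.194) and kept it without knockout 3 (0.0315). For Irx1 the authors' deposited table lists an adjusted p of 3.92e-05 beside a log2 fold change of -2.47. Limma-voom on recovered reads called Irx1 and no other member (adjusted p = 0.0374), against 1.09% of its genes in the direction of lower. That run used the same filter, which Irx1 passed through its controls alone. On recovered reads of genes of at least 0.1 TPM on average, chosen after seeing the data, its limma-voom adjusted p was 0.0494.

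Irx3 (ENSMUSG00000031734), of the same family, had 5.27, 4.92 and 7.82 TPM in knockouts, against 10.1, 7.80 and 8.53 TPM in controls. Knockout 3 reached the lowest control, so the groups overlapped. Its log2 difference of -0.50 (SE 0.19, 95% interval -0.94 to -0.07) did not pass (limma adjusted p = 0.367). Irx2, which lies in one genomic cluster with Irx1, averaged 1.11 ± 0.592 TPM in knockouts and 3.19 ± 0.960 TPM in controls (SD, n = 3 each), with no overlap. Irx5, which lies in one cluster with Irx3, averaged 0.886 ± 0.268 TPM in knockouts and 1.5 ± 0.556 TPM in controls, with overlap. Of the Iroquois family, 4 genes were tested, and none passed beside Irx1, whose call is subject to the limits given above. The limma adjusted p was 0.226 for Irx2 and 0.616 for Irx5. The authors' deposited table has an adjusted p of 0.0213 for Irx2.

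Pou3f3 (Brn1, ENSMUSG00000045515), a POU transcription factor gene of the loop and distal segments in the permanent kidney, had 6.21, 7.95 and 5.62 TPM in knockouts, against 6.41, 6.39 and 5.72 TPM in controls. The controls lay inside the range of the knockouts. The log2 difference was 0.07, with a 95% interval of -0.30 to 0.44 (limma adjusted p = 0.908). Its relative Pou3f1 averaged 6.21 ± 2.33 TPM in knockouts and 6.26 ± 1.39 TPM in controls (SD, n = 3 each; limma adjusted p = 0.965).

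Hnf4a (ENSMUSG00000017950), a nuclear receptor gene of proximal tubule, liver and gut, had 0.0901, 0.493 and 1.29 TPM in knockouts, against 3.96, 2.16 and 2.12 TPM in controls. All knockouts were below all controls, and the values spread widely inside both groups, over 2, 10 and 26 reads in knockouts and 93, 43 and 41 in controls. The log2 difference of -1.24 (SE 0.33, 95% interval -1.98 to -0.49) did not pass the test (limma adjusted p = 0.188). In the authors' deposited table its adjusted p is 0.270 and its log2 fold change -2.16. Liver markers were high in knockout 3. Alb, the albumin gene, was at 0.928, 1.22 and 27.9 TPM in knockouts 1 to 3, against 0.263, 0.517 and 2.34 TPM in controls 1 to 3. The 4 measured markers of liver, gut and yolk sac summed to 3.79, 3.33 and 73.9 TPM in knockouts 1 to 3. In controls 1 to 3 they summed to 6.04, 3.85 and 9.61 TPM. Vil1, 1 of the 4, was lower in all knockouts, at 0.398, 0.403 and 0.840 TPM against 2.37, 1.77 and 1.02 TPM in controls. Alb, Afp and Apoa1 overlapped between the groups. The part of these markers in the Hnf4a value of knockout 3 was not tested. Without that library the log2 difference of Hnf4a was -1.52 (limma adjusted p = 0.0730).

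Of 17 tested regulators of nephron formation and segments, none of them a member, 2 were lower, none was higher and 15 did not pass, and the median log2 difference was -0.27. The lower ones were Lhx1, a homeobox gene needed for the first nephron vesicles, and the Notch ligand gene Jag1. Lhx1 averaged 9.03 ± 1.46 TPM in knockouts and 24.0 ± 2.99 TPM in controls, and Jag1 averaged 38.1 ± 3.22 TPM in knockouts and 57.0 ± 2.16 TPM in controls (limma adjusted p = 0.0123 and 0.0325).

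**Figure D2:**
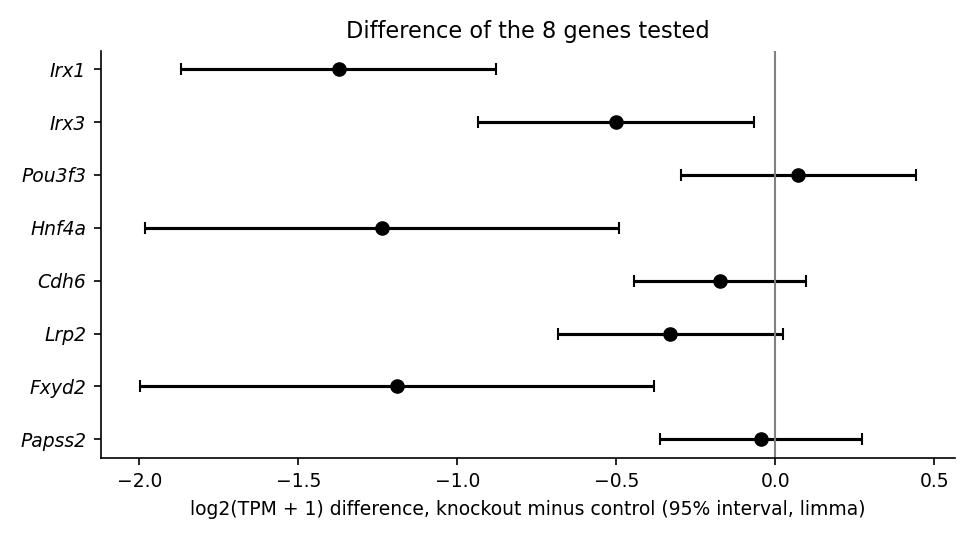
Difference in log2(TPM + 1), knockout minus control, of the 8 tested genes, with limma's 95% intervals before any adjustment. The intervals of Irx1, Irx3, Hnf4a and Fxyd2 lie below 0, and those of Pou3f3, Cdh6, Lrp2 and Papss2 include it.

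At an unadjusted p under 0.05, limma listed 4 of the 8 tested genes (Irx1, Irx3, Hnf4a and Fxyd2), all 4 in the direction of lower, against 11.3% of all genes tested. RefSeq start sites (build GRCm38.p6) were at hand for 7 of the 9 genes, in 9 windows of 250 bases before the start. None was at hand for Irx1 and Fxyd2, so these genes were not searched. The windows were searched on both strands for ATCAAAG, a TCF/LEF motif through which beta-catenin acts, and for CAAAGTCC, an HNF4 motif that shares CAAAG with the first. Of 32851 windows of the same length, 3.21% held the first motif and 1.20% the second. The windows below are the ones with a match, which is in capitals. The Cdh6 window held 1 match to the HNF4 motif and the Cubn window 1 match to the TCF/LEF motif. The windows are chr15:13173676-13173925 (-) for Cdh6 and chr2:13491877-13492126 (-) for Cubn, printed in the direction of transcription.
Cdh6: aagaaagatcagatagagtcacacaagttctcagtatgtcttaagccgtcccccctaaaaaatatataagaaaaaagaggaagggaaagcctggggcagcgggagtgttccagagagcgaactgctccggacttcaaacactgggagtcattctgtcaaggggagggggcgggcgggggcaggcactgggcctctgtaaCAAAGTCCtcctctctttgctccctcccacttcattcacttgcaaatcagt
Cubn: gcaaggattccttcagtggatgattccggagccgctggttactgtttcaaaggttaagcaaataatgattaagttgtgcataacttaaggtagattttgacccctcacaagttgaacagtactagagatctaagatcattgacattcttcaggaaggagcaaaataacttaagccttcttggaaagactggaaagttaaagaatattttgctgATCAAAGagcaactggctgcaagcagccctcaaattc

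Cdh6 (ENSMUSG00000039385) encodes K-cadherin, a cell adhesion protein of early nephron epithelium that persists in the proximal segment. It had 17.5, 16.1 and 19.4 TPM in knockouts, against 19.5, 18.2 and 22.5 TPM in controls, on 1216 to 1714 reads per library. The groups overlapped, and the log2 difference of -0.17 (95% interval -0.44 to 0.10) did not pass (limma adjusted p = 0.647). Of 7 tested cadherin genes, Cdh6 included, none passed limma over all genes; 1 (Cdh2) was at an unadjusted p under 0.05 and 1 was under 0.05 in the authors' deposited table. Cdh11, of mesenchyme, averaged 235.6 TPM in knockouts and 247.7 TPM in controls, and Cdh3, P-cadherin, 91.3 TPM in knockouts and 97.7 TPM in controls.

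For protein uptake, Lrp2 (ENSMUSG00000027070), the gene of the endocytic receptor megalin, had 5.05, 4.22 and 5.46 TPM in knockouts, against 5.98, 6.29 and 6.96 TPM in controls. The groups did not overlap, but the gap between the nearest libraries was smaller than the range inside either group. Its log2 difference was -0.33 (SE 0.15, 95% interval -0.68 to 0.02; limma adjusted p = 0.481). Its adjusted p in the authors' deposited table is 0.0581. Cubn (ENSMUSG00000026726), the gene of its partner cubilin, had 0.459, 0.175 and 0.472 TPM in knockouts, against 0.626, 0.527 and 0.517 TPM in controls. All values were under 1 TPM, so it was left out of the test. The groups did not overlap in TPM, but knockout 3 (0.472) was close under control 3 (0.517). The Cubn transcript is long, and 22 to 63 reads in knockouts and 62 to 91 in controls stood behind these levels. Those read ranges overlapped. Amn, which anchors cubilin in the membrane, was named after its values were seen. It had 0.354, 0.129 and 0.712 TPM in knockouts, against 2.23, 1.12 and 1.35 TPM in controls (limma adjusted p = 0.258). Like Irx1, Amn passed the filter on low values through its controls alone. Of 15 tested endocytosis partners, 1 was lower (0.313% over all genes tested), none was higher and 14 did not pass. Their median log2 difference was -0.11. The lower one was Vldlr, a lipoprotein receptor gene of the same family as Lrp2, at 25.0 ± 1.72 TPM in knockouts and 39.1 ± 2.10 TPM in controls (SD, n = 3 each; limma adjusted p = 0.0305).

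For salt transport, Fxyd2 (ENSMUSG00000059412), the gamma subunit of the sodium pump, had 1.36, 1.37 and 4.23 TPM in knockouts, against 8.78, 5.44 and 4.51 TPM in controls. Knockouts 1 and 2 were far below every control, and knockout 3 was close under control 3. The log2 difference of -1.19 (SE 0.35, 95% interval -2.0 to -0.38) did not pass (limma adjusted p = 0.244). Without knockout 3 it was -1.57 and passed (limma adjusted p = 0.0480). That fit called 144 genes lower over all genes, against 55 in the main test. On all 6 libraries, the adjusted p of Fxyd2 in the authors' deposited table is 0.00602. Of the 11 tested pump subunits and FXYD genes, none was lower and 1 was higher (0.131% over all genes tested). That was Fxyd4, a regulator of the same pump known from the collecting duct, at 8.06 ± 0.870 TPM in knockouts and 2.97 ± 0.630 TPM in controls (SD, n = 3 each; limma adjusted p = 0.0352), a call lost whichever library was left out (0.0512 to 0.155). Fxyd2 and Fxyd4 had log2 differences of opposite sign, -1.19 and 1.20.

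Papss2 (ENSMUSG00000024899) encodes an enzyme that makes the sulfate donor PAPS. It had 7.36, 6.91 and 6.93 TPM in knockouts, against 6.44, 7.91 and 7.70 TPM in controls. The knockouts lay inside the range of the controls, and the log2 difference was -0.05 (95% interval -0.36 to 0.27; limma adjusted p = 0.935). Of 15 tested genes of sulfate activation and transfer, 1 was lower (0.313% over all genes tested), none was higher and 14 did not pass. Their median log2 difference was -0.13. The lower one was the sulfotransferase gene Sult1a1, at 2.76 ± 0.291 TPM in knockouts and 6.88 ± 0.290 TPM in controls (SD, n = 3 each; limma adjusted p = 0.0314). Sult1d1, a further sulfotransferase gene, was named after its values were seen. It had 0.0884, 0.145 and 0.0971 TPM in knockouts, against 6.10, 2.76 and 1.12 TPM in controls (limma adjusted p = 0.133). For Sult1d1 the authors' deposited table lists an adjusted p of 8.13e-08. Like Irx1, Sult1d1 passed the filter on low values through its controls alone.

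Genes of mature proximal transport were set beside the members. Of 25 listed, 19 were in the table and 13 were tested, of which 1 was lower, none was higher and 12 did not pass, against 0.313% lower over all genes tested. The lower one was Ggt1, the brush border enzyme that breaks down glutathione, at 3.99 ± 0.191 TPM in knockouts and 10.9 ± 1.44 TPM in controls (SD, n = 3 each; limma adjusted p = 0.0155). All knockouts lay below all controls for 9 of the 19, and for 5 of the 6 that were under the filter, while 3 of the 19 had all knockouts above all controls, against 8.45% below and 7.88% above in the table. Slc34a1, the main phosphate transporter of the proximal tubule, was named after its values were seen. It had 0.0930, 0.102 and 0.204 TPM in knockouts, against 3.34, 1.24 and 0.906 TPM in controls. Being under the filter, it was not tested by limma. For Slc34a1 the authors' deposited table lists an adjusted p of 4.74e-07. The highest control for Slc34a1, Hnf4a, Fxyd2, Sult1d1 and Amn was control 1 each time. Of 3 tested loop and distal genes, 1 was lower, Calb1, a calcium-binding protein gene also of the duct, at 4.88 ± 1.09 TPM in knockouts and 13.9 ± 2.31 TPM in controls (limma adjusted p = 0.0281).

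**Figure D3:**
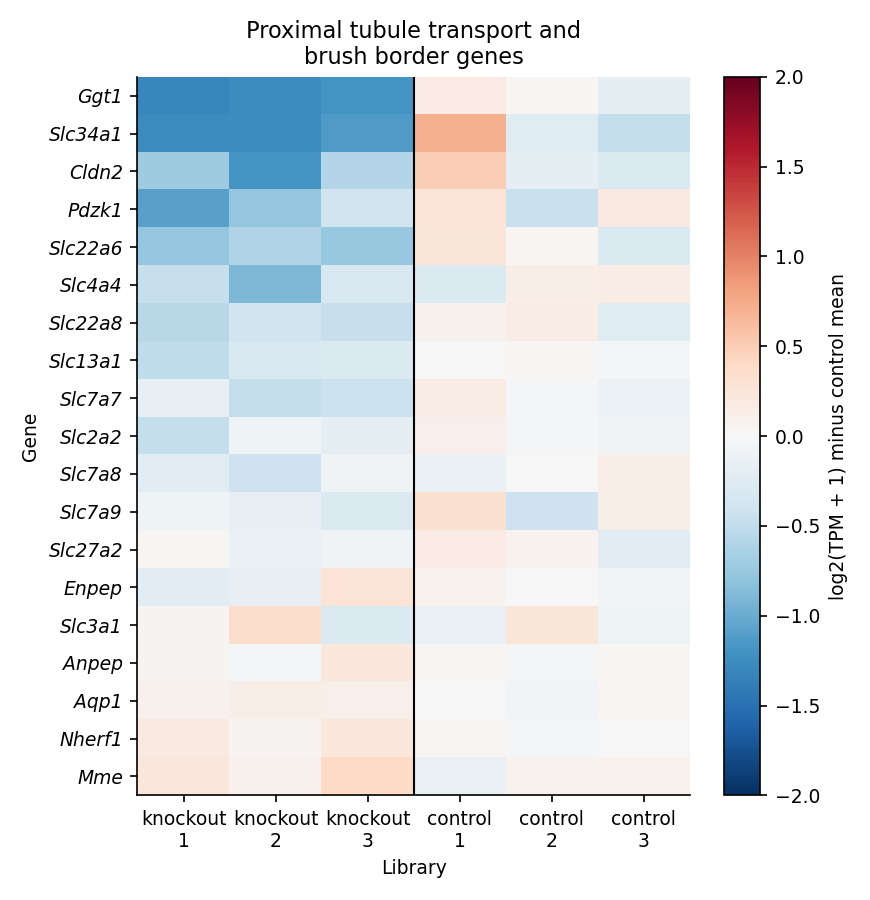
Levels of the 19 measured proximal tubule transport and brush border genes as log2(TPM + 1) minus the control mean, with knockouts in the left columns and controls in the right ones, ordered by the mean over knockouts. Ggt1 and Slc34a1 at the top are low in all 3 knockouts, and Mme and Nherf1 at the bottom are above their control means in all 3.

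Over all pathway lists, the members left out, 93 genes were in the table. All knockouts lay below all controls for 30 of them (32.3%) and above for 9, against 8.45% and 7.88% of the table. Of 81 tested, 6 were lower and 1 was higher (0.313% and 0.131% over all genes tested), and the median log2 difference was -0.13. The lower ones are Lhx1, Jag1, Vldlr, Ggt1, Sult1a1 and Calb1. With single libraries left out, Lhx1 passed in 2 of 6 fits (without knockout 1 or 3), the other 5 lower genes in 1 (without knockout 3) and the higher gene Fxyd4 in 0 of 6. The highest limma adjusted p in these fits was 0.0791 for Lhx1, 0.161 for Jag1, 0.174 for Vldlr, 0.113 for Ggt1, 0.172 for Sult1a1, and 0.155 for both Calb1 and Fxyd4. The lists and the members were chosen with earlier results of these data known.

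The knockouts differed among themselves. Knockout 3 had the highest knockout value in 7 of the 9 members, all but Pou3f3 and Papss2, and knockout 2 had the lowest in 6. Control 1 was the highest control in 6.

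In bulk tissue, fewer tubule cells and less RNA per cell cannot be told apart. Pax2, a transcription factor gene of tubule and duct, had 25.0, 18.8 and 14.5 TPM in knockouts, against 20.6, 23.6 and 25.2 TPM in controls, with overlap. Its relative Pax8 had 16.3, 19.1 and 21.2 TPM in knockouts, against 23.7, 24.0 and 21.0 TPM in controls, with overlap. The wider list of nephron regulators holds both. All knockouts lay below all controls for 7 of its 18 measured genes and above for 1, against 8.45% and 7.88% of the table. The 7 include Lhx1 and Jag1, and Osr2, Dll1 and Wnt4 at 51.9%, 68.1% and 87.7% of their control means. The 1 with all knockouts above was Hey1, at 143.5%. Osr2, Dll1, Wnt4 and Hey1 were named after their values were seen. Genes of epithelium in general (Epcam, Cdh1, Krt8 and Krt18) summed to 523 to 568 TPM in knockouts and 630.2 to 648 TPM in controls, without overlap. Within that sum Cdh1 overlapped, at 23.9 TPM on average in knockouts and 21.2 TPM in controls. The 4 endothelial markers summed to 192 to 216 TPM in knockouts and 237 to 255 TPM in controls, also without overlap. Within that sum Pecam1 and Tek overlapped, and Cdh5 and Kdr were lower in all knockouts. The 7 Wolffian duct markers overlapped between the groups, at 195 to 249 TPM in knockouts and 220 to 272 TPM in controls. That sum includes Wnt9b, the inactivated gene. Its largest part was Emx2, at 129 TPM on average in knockouts and 138 TPM in controls. The 7 markers of gonadal soma summed to 96.5 to 182 TPM in knockouts and 55.7 to 75.9 TPM in controls. Within that sum Nr5a1, Gata4, Star and Cyp11a1 were higher in all knockouts, and Amh, Sox9 and Dhh overlapped. Nr5a1 and Gata4 passed limma (adjusted p = 0.0281 and 0.0354). The 5 markers of neural crest and neurons summed to 8.86 to 75.7 TPM in knockouts and 11.4 to 15.9 TPM in controls. The part of these marker lists in the differences of the tubule genes was not tested. Wnt9b itself was at 23.4, 19.2 and 19.0 TPM in knockouts, against 24.9, 26.4 and 34.0 TPM in controls. Wnt9b did not pass limma (adjusted p = 0.266), and its adjusted p in the authors' deposited table is 0.0263. A gene-level value can include transcripts left after part of a gene is deleted, so it is a weak check of the labels. Whether such transcripts were present was not tested.

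**Figure D4:**
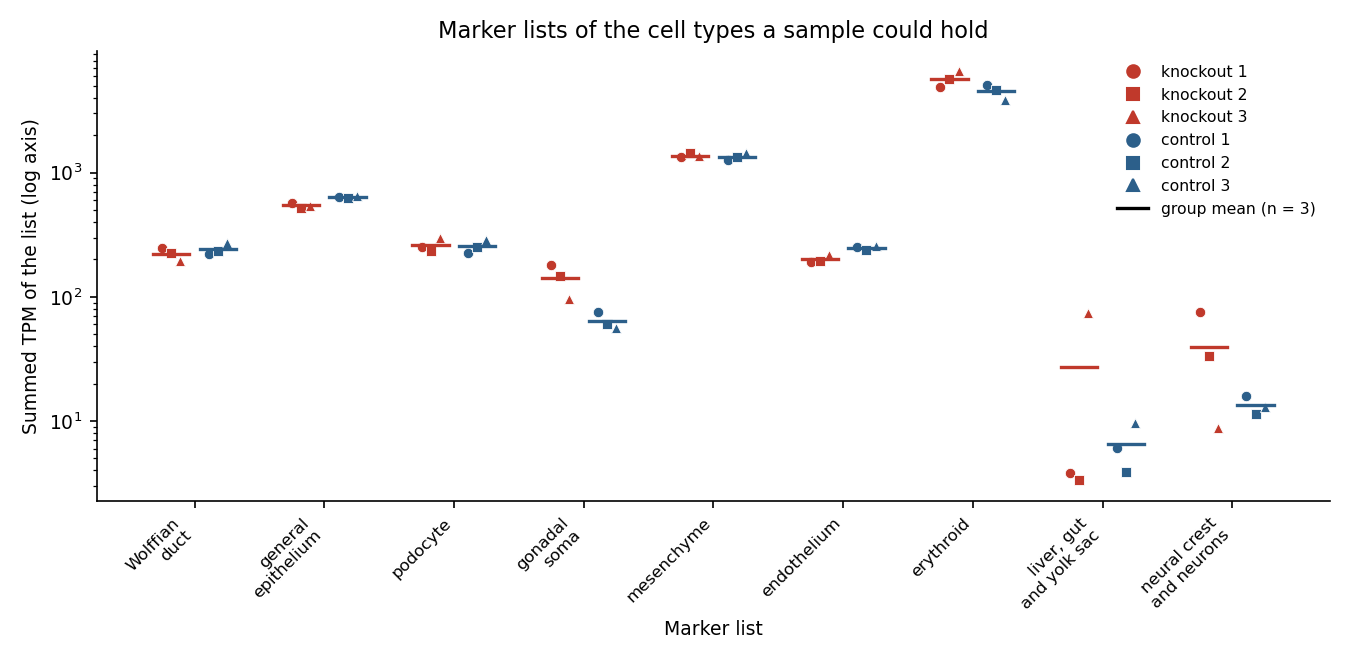
Summed TPM, on a log axis, of marker lists for cell types a mesonephros sample could hold, in knockout (red) and control (blue) libraries, with group means as bars. The gonadal soma sum is higher in all knockouts, and the general epithelial and endothelial sums are lower in all knockouts. The liver, gut and yolk sac sum is high in knockout 3.

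Each member was then set against the 4 general epithelial genes of the same library, as its log2(TPM + 1) minus the mean of theirs. On this scale Irx1 averaged -6.09 ± 0.235 in knockouts and -4.86 ± 0.172 in controls (SD, n = 3 each), a difference of -1.24 without overlap. Hnf4a averaged -6.07 ± 0.579 in knockouts and -4.96 ± 0.436 in controls, a difference of -1.10 without overlap. Lrp2 was also relatively lower in all knockouts, by a smaller difference of -0.20. For these 3 genes the exact two-sided permutation test gave p = 0.1, the smallest that 3 against 3 allows, and 0.3 after Benjamini-Hochberg adjustment over 9 genes. Fxyd2 differed by -1.06 and Irx3 by -0.37 with overlapping groups (exact permutation p = 0.2 and 0.3). Pou3f3 differed by 0.21 and Papss2 by 0.09, with exact permutation p of 0.5 and 0.3. Cdh6 differed by -0.04 and Cubn by -0.06, with exact permutation p of 0.8 and 0.5. With a pseudocount of 0.1, chosen after seeing the data, the relative differences of the low genes were larger, at -2.20 for Irx1, -2.21 for Hnf4a and -0.42 for Cubn. The ratio shows unequal change between genes and not that any of them kept its level.

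**Figure D5:**
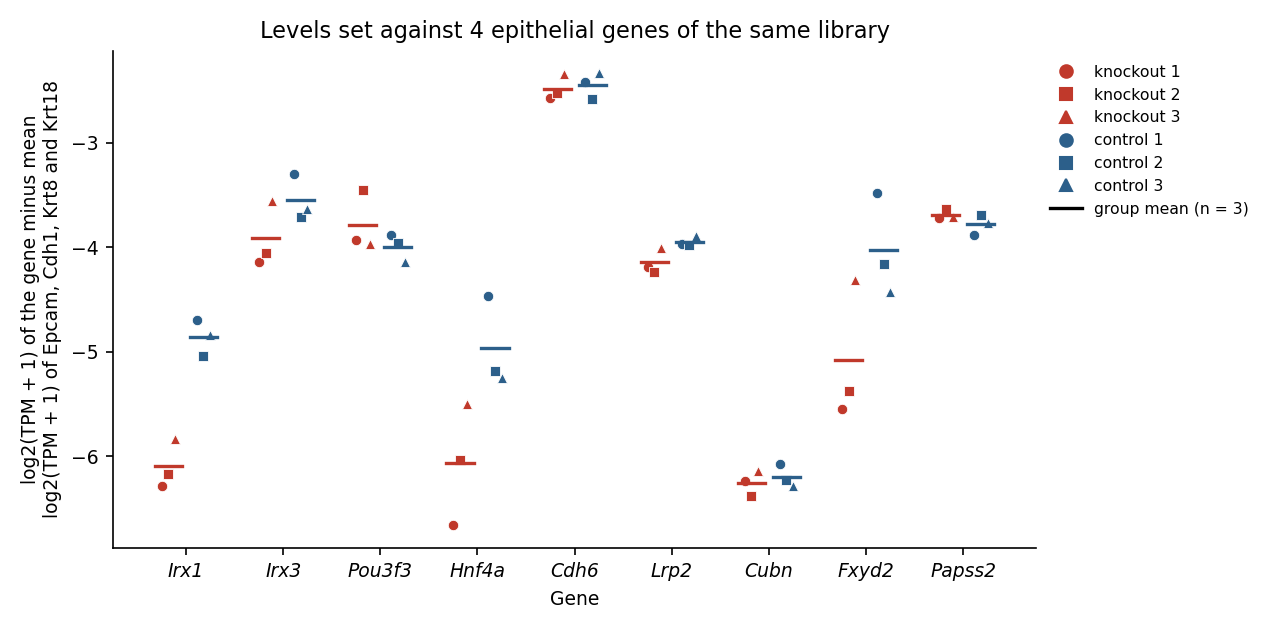
Level of each gene relative to Epcam, Cdh1, Krt8 and Krt18 of the same library, in log2 units, in knockout (red) and control (blue) libraries, with group means as bars. Irx1, Hnf4a and Lrp2 are lower in all knockouts, and the groups overlap for the other 6 genes.

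The genes whose profile over the 6 libraries was nearest to that of Irx1, as log2(TPM + 1) centred on the control mean, were Grik1, P2rx2 and Krt17. Their root mean square distances to Irx1 were 0.093, 0.12 and 0.18 in log2 units. This scale understates the change of low genes such as Irx1, so a small distance does not mean an equal ratio between the groups. Grik1, a kainate receptor gene, had 6.03, 5.71 and 7.92 TPM in knockouts, against 18.4, 18.8 and 18.8 TPM in controls. P2rx2, an ATP-gated channel gene, had 4.22, 3.79 and 5.66 TPM in knockouts, against 15.7, 14.02 and 13.6 TPM in controls. Krt17, a keratin gene, had 2.17, 2.0 and 4.31 TPM in knockouts, against 11.0, 6.63 and 9.80 TPM in controls. In each of the 4 genes, knockout 3 was the highest and knockout 2 the lowest of the knockouts, an order largely fixed by choosing genes for their likeness over these libraries.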

How the data were processed

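Poly(A)-selected RNA was read from both ends over 150 bases, per the labels' protocols. The submitters' processing notes name the mouse build GRCm39 and DESeq2; for the aligner, counter, strand setting and annotation nothing is stated in them. The authors deposited 1 TPM column per embryo, per the file headers, and all 6 columns have one sum. Their log2 fold change of knockout over control, p-value and adjusted p-value are in the same deposited table and are quoted only as theirs.

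Groups came from the titles. The test was limma (version 3.58.1, under R 4.3.3), fitted to log2(TPM + 1) with the trend option and 1 term for genotype. It took in genes that reached 1 TPM in 3 libraries or more and was two-sided, with Benjamini-Hochberg adjustment over 17577 genes. A difference on this scale understates the change of low genes. Relative levels were compared by exact permutation tests (SciPy 1.17.1), against a set of general epithelial genes first planned as the alternative set; this choice was made with the results known. The set planned first and a few listed genes are not reported here. Ratios of TPM values between libraries gave whole reads within 0.02 reads for 20032 of 20033 genes; for 1000 genes searched up to 4000 reads, 91.4% of the deposited rows gave such reads, and 0% did once the values had been altered at random. A factor common to all libraries is lost, so totals are lower bounds. Within a group, pairs of libraries differed by a chi-square of at least 7.29 per degree of freedom, so none repeats another. The steps were tested on simulated reads.

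All 9 members were named whatever their values, with up to 3 called genes of each pathway list or, where none was called, the 2 of highest level; exceptions are marked. Members and lists were chosen with earlier results of these data known. Alternatives covered scaling, filter, pseudocount, erythroid genes, a replicate block, recovered reads and each library left out.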

Additional observations from a re-analysis of the deposited data

How the results depend on the processing

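The count of members lower, 1 in the main test (Irx1), was 0 with median-of-ratios scaling (limma adjusted p of Irx1 0.0508), with a pseudocount of 0.1 (0.0661), with the replicate block (0.118) and with a filter on the mean of 6 libraries, chosen after seeing the data; with single libraries left out it ran from 0 to 2, the 2 being Irx1 and Fxyd2 without knockout 3. The log2 difference of Irx1 was -1.37 with the scaling and the block, -2.33 with a pseudocount of 0.1 and -2.44 on recovered reads, and that of Hnf4a was -2.34 with that pseudocount and -2.68 on recovered reads. The count stayed at 1 with upper-quartile scaling (limma adjusted p of Irx1 0.0488), with no filter on low values (0.0343) and with erythroid genes removed (0.0455). Limma-voom on recovered reads kept the count at 1, with an adjusted p of 0.0374 for Irx1, 0.0887 for Hnf4a and 0.0819 for Fxyd2. That run used the filter of the main test. On recovered reads of genes of at least 0.1 TPM on average, chosen after seeing the data, limma-voom also gave 1 (adjusted p of Irx1 0.0494). Over all genes, lower calls numbered 55 in the main test, 191 on recovered reads, 13 with the replicate block and 144 without knockout 3. Higher calls over all genes were 23, 93, 4 and 99 in the same runs. Leaving out any other single library gave 10 to 28 lower calls over all genes. Members higher stayed at 0 in every alternative run. Other list genes that were lower, 6 in the main test, numbered 9 on recovered reads, 1 with the replicate block and 0 to 7 with single libraries left out; those that were higher, 1 in the main test, numbered 0 with the block and 0 to 1 with single libraries left out, the 1 being Osr1 without knockout 3 and not Fxyd4, whose call was lost in each of those 6 fits. Mouse numbers 1 to 3 occur in both groups but share no stated litter, and the deviations of same-numbered libraries correlated at -0.064, 0.050 and -0.051, so the block is a number only. Cubn, under the filter, had a log2 difference of -0.19 without a filter and -0.69 on recovered reads of genes of at least 0.1 TPM (limma adjusted p = 0.723 and 0.498). Small differences changed sign with single libraries left out: Pou3f3 ran from -0.052 (without knockout 2) to 0.17, and Papss2 from -0.13 to 0.0038 (without control 2). Relative to the 4 general epithelial genes, with single libraries left out, Cdh6 ran from -0.11 to 0.015 (above 0 without control 3 or knockout 1) and Cubn from -0.12 to 0.0067 (above 0 without control 1 or knockout 2); these alternatives were chosen after seeing the data. The cause of these changes was not tested. Few reads limit Irx1, Hnf4a and Cubn, and the counts cover counting error only.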
